A study of Drosophila melanogaster with 15 samples.

Results

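Knockdown of prp4 in the fly eye was compared with control by RNA-Seq of adult heads. The comparison rests on 10 of the 15 libraries of the series, 5 from *GMR > prp4* RNAi flies and 5 from *GMR/+* flies, taken by their genotype labels. Gene groups were examined across 9012 genes tested of 13259 in the table of counts. The remaining 5 libraries, labelled *GMR > prp8* RNAi, enter only a direct comparison of the knockdowns near the end.

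All flies carried *GMR-Gal4*, a driver active in the developing and adult eye, including the photoreceptors. *GMR > prp4* RNAi flies also carried a GD line, an inducible hairpin transgene against *prp4*, whereas *GMR/+* controls carried the driver alone. The groups therefore differ in the transgene and its insertion as well as in the hairpin, and effects of the knockdown and of the line cannot be told apart here. Flies were 3 to 5 days old and entrained to light:dark cycles before they were frozen at ZT12 according to the labels. The text of the study names an earlier hour in one place, so the hour of collection is uncertain. RNA came from whole heads, so eye cells are mixed with brain, fat body, muscle and cuticle-forming cells. In such bulk RNA, fewer cells of a type and less RNA per cell cannot be told apart.

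PRP4 is a kinase bound to the tri-snRNP, the particle of U4, U5 and U6 small nuclear RNAs with their proteins that joins the assembling spliceosome before it becomes active. In yeast and human cells, phosphorylation by this kinase accompanies the integration of the tri-snRNP. The core machinery serves nearly all introns, and introns with weak signals are often the most sensitive to its loss. In the eye, most RNA comes from photoreceptors, whose opsins and signalling proteins are among the most abundant messages of the head.

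Libraries were resampled by the authors to equal depth, so that reads counted on genes ranged only from 11843869 to 11972908 over the 10 libraries. The first axis of a principal component analysis carried 37.6% of the variance and separated the genotypes. The second carried 14.9% and set control replicate 1 and *GMR > prp4* RNAi replicates 9 and 10 apart from the other 7 libraries. Nothing in the labels explains this second split. For gene groups described below, counts with these 3 libraries left aside are given where a count in either direction moved by over 1.5 times.

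The targeted gene was examined first. It is CG7028 in the table (FBgn0027587, 3L, 206882 to 211759), with 142, 165, 153, 160 and 141 reads in the controls compared with 149, 129, 126, 129 and 111 in the knockdown libraries. One knockdown library, replicate 6, lay within the control range. The log2 fold change was -0.23 (standard error 0.080) and did not pass the threshold, an adjusted p of 0.05 over all genes tested (adjusted p = 0.101, edgeR quasi-likelihood test). Without replicate 6 it was -0.28 with an adjusted p under the threshold. These counts are of whole heads and do not measure the knockdown in the eye alone.

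Of the 9012 genes, 868 (9.63%) were called at that threshold, 448 higher (4.97%) and 420 lower (4.66%) in *GMR > prp4* RNAi. Most changes were small. The median absolute log2 fold change of the called genes was 0.36, and 80 of them reached an absolute log2 fold change of 1, with 45 higher and 35 lower. The normalized counts of the groups did not overlap for 9.17% of all genes tested. These percentages are the background against which the gene groups below are read. The lists were chosen with earlier results of these data known, so a share above the background describes a list and does not test it. The median log2 fold change over all genes was -0.00082. When libraries were scaled by library size alone, that median was -0.018 and 41.6% of the called genes were higher, compared with 51.6% under the main normalization, so the balance between higher and lower genes depends on the scaling.

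Called genes were spread over the genome. They made up 11.5% of the 1599 genes tested on 2L, 10.4% of 1830 on 2R, 9.74% of 1725 on 3L and 8.91% of 2256 on 3R. On X, 49 of 1509 genes were higher and 70 lower. On the small chromosome 4, 6 of 80 genes were higher and 0 lower.

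**Figure D1:**
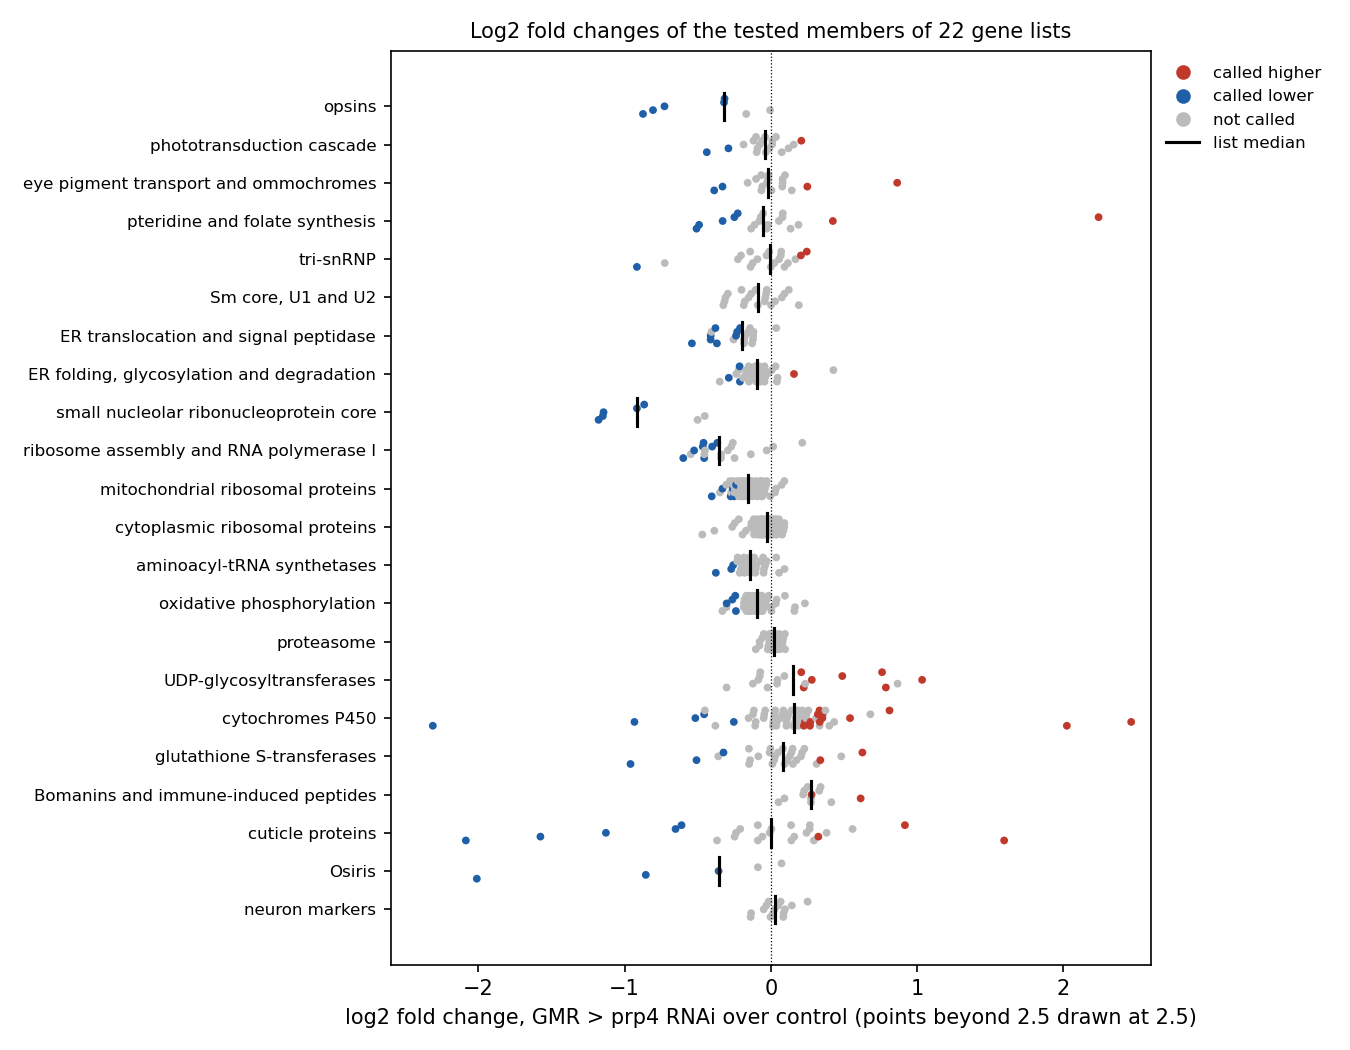
Log2 fold changes of *GMR > prp4* RNAi over control (x axis) for the tested members of 22 gene lists (rows). Each point is a gene, coloured by its call, and black bars are list medians. Opsins, nucleolar ribonucleoprotein genes and ER translocation genes lie mostly left of 0, with medians of -0.32, -0.92 and -0.20, while UDP-glycosyltransferases and cytochromes P450 have medians of 0.15 and 0.16. The lists of nucleolar ribonucleoprotein and ribosome assembly genes were written after the values had been seen.

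Most opsins fell, while those of the outer photoreceptors and of one inner class were not called. Opsins are the light receptors, and each photoreceptor type of the compound eye and ocelli expresses mainly one of them. Of 7 opsin genes tested, 5 were lower and 0 higher (71.4%, against 9.63% of all genes), with a median log2 fold change of -0.32. The same number was lower when any one library was left out, and with control replicate 1 and *GMR > prp4* RNAi replicates 9 and 10 left aside. *Rh2*, the opsin of the ocelli, had 2032, 2070, 2076, 2183 and 2161 reads in the controls compared with 1070, 1224, 1127, 1215 and 1040 in the knockdown libraries, a log2 fold change of -0.87 (standard error 0.051, edgeR adjusted p = 1.52e-07). Every knockdown library lay far below every control. *Rh4*, a UV opsin of one class of R7 cells, had 16033, 16644, 16213, 15320 and 15807 reads against 8665, 9675, 9099, 8842 and 8984, a log2 fold change of -0.81. *Rh3*, the UV opsin of the other R7 class, ranged from 12016 to 13714 reads in the controls and from 7019 to 8291 in the knockdown, and its log2 fold change was -0.73. No library of either group overlapped the other for these genes.

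The remaining opsins moved less. *Rh5*, the blue opsin of R8 cells, ranged from 13007 to 14126 reads in the controls and from 10167 to 11535 in the knockdown (log2 fold change -0.32, edgeR adjusted p = 0.00123). *Rh7*, a non-canonical opsin with few reads in the head, had the same log2 fold change of -0.32. *Rh6*, the green opsin of R8, and *ninaE*, the opsin of the outer photoreceptors R1 to R6, were not called. *Rh6* had 16974, 15876, 16661, 14259 and 14838 reads against 13273, 14863, 15106, 13087 and 12917, with a log2 fold change of -0.17 (95% confidence interval -0.30 to -0.037, edgeR adjusted p = 0.140). *ninaE*, the most abundant of them at 935600 to 989943 reads in the controls, had a log2 fold change of -0.0047 (95% confidence interval -0.15 to 0.14).

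Most of the phototransduction machinery downstream of the opsins was not called. Of 19 genes of the cascade tested, 1 was higher and 2 lower (15.8%, against 9.63% of all genes), with a median log2 fold change of -0.039. *trpl*, a light-gated cation channel, had 47630, 51959, 51918, 47188 and 50755 reads in the controls compared with 37980, 43326, 44292, 38257 and 37943 in the knockdown libraries, a log2 fold change of -0.29. *laza*, a lipid phosphatase of the phosphoinositide cycle, fell by 0.44 on the log2 scale. *inaC*, the eye protein kinase C, rose from 3415 to 3677 reads to 3818 to 4278, a log2 fold change of 0.21, and lost the call without control replicate 2, control replicate 4 or *GMR > prp4* RNAi replicate 8.

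Genes that switch rhodopsin off, fold it or supply its chromophore behaved in the same mixed way, with 1 of 16 tested genes higher and 2 lower (18.8%). *rdgC*, the phosphatase that dephosphorylates rhodopsin, had 1516, 1761, 1656, 1673 and 1777 reads in the controls and 1988, 2098, 2132, 2212 and 2069 in the knockdown, a log2 fold change of 0.34. *Pdh*, a retinol dehydrogenase of pigment cells that recycles the chromophore, had 7626, 6514, 5739, 6669 and 5895 reads against 3808, 3345, 3565, 4838 and 4455. Its log2 fold change was -0.68 (edgeR adjusted p = 0.00154), larger in size than that of any gene of the cascade list. *pinta*, a retinoid-binding protein of pigment cells, fell by 0.23 on the log2 scale and lost the call without control replicate 3.

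Among 12 genes of rhabdomere and lens structure, 2 were lower and 0 higher (16.7%). *Cry*, which encodes crystallin, a protein of the corneal lens, had 68, 58, 68, 62 and 69 reads in the controls and 30, 35, 27, 42 and 39 in the knockdown, a log2 fold change of -0.89. *prom*, which encodes prominin, a membrane protein that helps to keep rhabdomeres apart, fell by 0.36 on the log2 scale. Of 20 regulators of photoreceptor fate, 1 was higher (5.0%, below the background). This was *ss*, the transcription factor that sets the choice between R7 classes, which had 55, 43, 44, 50 and 78 reads in the controls and 93, 107, 75, 70 and 78 in the knockdown. The groups overlapped, and the call on *ss* (log2 fold change 0.66) was lost without any one of 4 libraries.

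**Figure D2:**
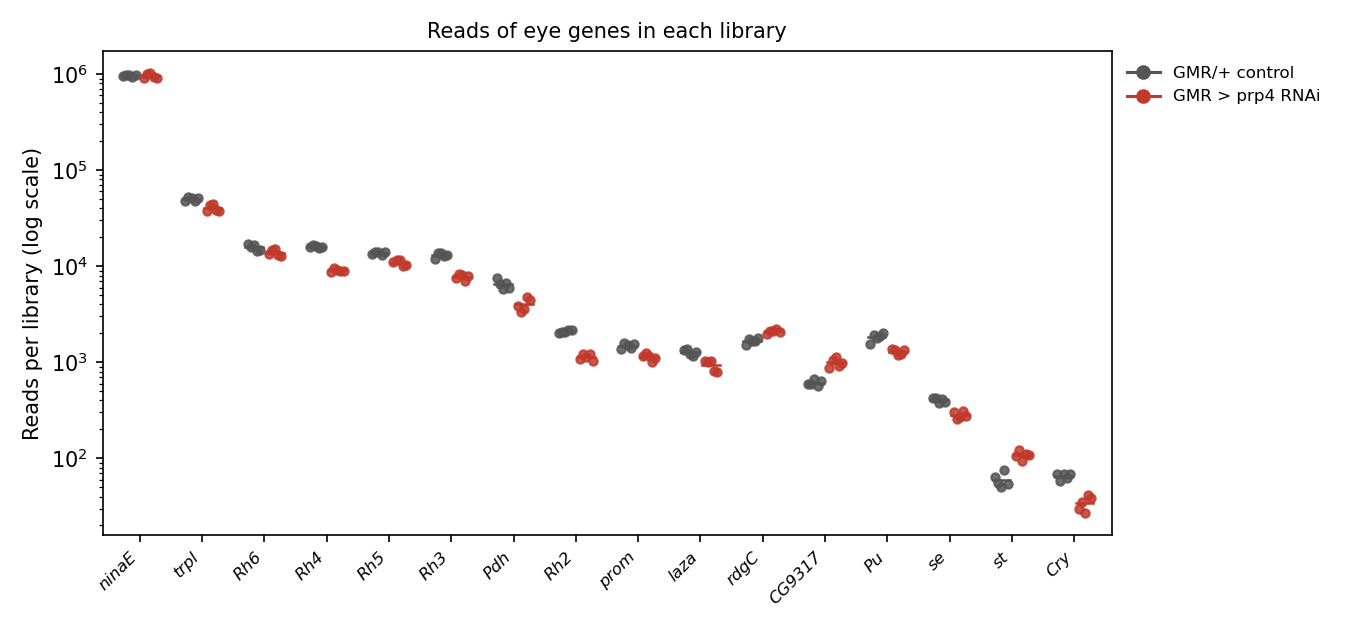
Reads per library (y axis, log scale) of 16 genes of the eye in the 5 control (grey) and 5 *GMR > prp4* RNAi (red) libraries. Each point is a library and the short lines are group means. *Rh4*, *Rh3* and *Rh2* are lower in every knockdown library, *ninaE* overlaps between the groups, and *rdgC*, CG9317 and *st* are higher.

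Genes of the red and brown eye pigments moved in both directions. The *w* gene, which encodes a pigment transporter, is also the marker of fly transgenes and is described with the largest changes. Of 18 tested genes of pigment transport and the brown ommochromes, 2 were higher and 2 lower (22.2%). *st*, the partner of the White protein in ommochrome transport, had 64, 56, 50, 75 and 54 reads in the controls compared with 105, 123, 93, 110 and 108 in the knockdown libraries, a log2 fold change of 0.86. *g*, a subunit of the AP-3 complex that delivers cargo to pigment granules, rose by 0.25 on the log2 scale. *cd*, needed for the last steps of ommochrome formation, and *KFase*, the kynurenine formamidase, had log2 fold changes of -0.39 and -0.33.

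The red drosopterins derive from a pteridine pathway that starts at GTP. In the list of pteridine and folate genes, 5 of 19 were lower and 2 higher (36.8%). *Pu*, the GTP cyclohydrolase of the first step, had 1543, 1926, 1799, 1878 and 2019 reads in the controls and 1370, 1333, 1190, 1226 and 1327 in the knockdown, a log2 fold change of -0.49. *se*, an omega glutathione S-transferase of drosopterin synthesis, had 424, 428, 378, 417 and 389 reads against 304, 254, 267, 313 and 277, a log2 fold change of -0.51. Neither gene had a knockdown library inside the control range. *Aph-4*, an alkaline phosphatase, fell by 0.33 on the log2 scale. *Hn*, the phenylalanine hydroxylase that uses a pteridine cofactor, was higher instead (log2 fold change 0.42), with control replicate 1 at 8416 reads and the other controls between 7044 and 7273. CG8147 was the other higher gene, and the highest log2 fold change of the list was 2.24. Without *GMR > prp4* RNAi replicate 8, 3 genes of the list were lower, and without control replicate 3 only 1 was higher.

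Photoreceptors signal to the brain with histamine, which is taken up by glia, recycled and returned. Of 8 genes of this cycle, 2 were higher and 1 lower (37.5%). *Hdc*, which makes histamine, had 1602, 1863, 1772, 1615 and 1675 reads in the controls compared with 1975, 2244, 2247, 2094 and 2129 in the knockdown libraries, a log2 fold change of 0.34. CG9317, which encodes the photoreceptor transporter CarT that retrieves the recycled conjugate, had 593, 593, 676, 569 and 638 reads against 872, 1056, 1140, 924 and 986. Its log2 fold change was 0.71 (standard error 0.075, edgeR adjusted p = 4.26e-05). *e*, the enzyme that conjugates histamine in glia and also acts in cuticle tanning, varied widely, with 1254, 645, 404, 1246 and 371 reads in the controls and 559, 253, 283, 323 and 231 in the knockdown. Its log2 fold change of -1.24 passed the threshold (edgeR adjusted p = 0.0413) but not without any one of 7 libraries, nor with limma-voom.

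Genes that bring proteins into the endoplasmic reticulum (ER) nearly all had log2 fold changes below 0, as did the mitochondrial ribosomal proteins described below. The list holds the Sec61 channel, its partners, the signal recognition particle and the signal peptidase. The study's own pathway analysis of these data had listed protein export, protein processing in the ER, drug metabolism and folate biosynthesis. None of these terms passed correction for multiple testing. The lists of ER folding, detoxification and pteridine genes are therefore not independent checks, and neither is this list. Of 20 genes tested, 8 were lower and 0 higher (40.0%, against 9.63% of all genes), 19 had a log2 fold change below 0, and the median was -0.20. Normalized counts of the groups did not overlap for 3 of the 20, beside 9.17% of all genes. *Sec61alpha*, the channel subunit, had 4041, 3482, 4104, 4061 and 3201 reads in the controls compared with 2792, 2874, 2640, 2841 and 2904 in the knockdown libraries, a log2 fold change of -0.41 (edgeR adjusted p = 0.00335). *SsRbeta*, a subunit of the translocon-associated complex, had 3556, 2911, 3550, 3499 and 2851 reads against 2566, 2444, 2290, 2590 and 2647, a log2 fold change of -0.37. For both genes the controls varied, with replicates 2 and 5 lowest, and every knockdown library lay below them. *TRAM*, another translocation factor, fell by 0.54 on the log2 scale and *Tapdelta* by 0.38. Summed over the list, the controls had 19605, 17815, 22111, 21216 and 17717 reads and the knockdown libraries 16776, 16358, 14782, 15080 and 15728. Without control replicate 3 or control replicate 4, 5 of the genes were lower, and the number was also 5 with control replicate 1 and *GMR > prp4* RNAi replicates 9 and 10 left aside.

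The chaperones, glycosylation enzymes and degradation factors inside the ER moved less. Of 34 tested, 3 were lower and 1 higher (11.8%), and the median log2 fold change was -0.098. The number of lower genes was 1 without any one of control replicates 1, 3 and 4 or of *GMR > prp4* RNAi replicates 7 and 8, 5 with DESeq2, and 6 with 0 higher under library size scaling. *CaBP1*, a disulfide isomerase, fell by 0.29 on the log2 scale. *OstStt3* and *Ostgamma*, subunits of the oligosaccharyltransferase, had log2 fold changes of -0.21 and -0.21. *Xbp1*, the transcription factor of the unfolded protein response, had a log2 fold change of 0.16 at an edgeR adjusted p of 0.0499, and lost the call without any one of 9 libraries.

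Nucleolar genes fell further. The lists of these genes were written after the values had been seen, because 3 of the 15 largest decreases, *Nop60B*, *Fib* and *nop5*, encode core proteins of small nucleolar ribonucleoproteins, which guide modification of ribosomal RNA. Of 7 such core genes tested, 5 were lower and 0 higher (71.4%). The remaining 2, *NHP2* and CG4038, had log2 fold changes of -0.50 and -0.45 without passing the threshold. *Nop60B*, the pseudouridine synthase, had 390, 422, 636, 624 and 350 reads in the controls compared with 234, 240, 204, 170 and 212 in the knockdown libraries, a log2 fold change of -1.18. *Fib*, fibrillarin, the methyltransferase, had 59, 74, 86, 101 and 46 reads against 43, 28, 38, 26 and 28, a log2 fold change of -1.15. *nop5* had 187, 211, 335, 294 and 177 reads against 109, 125, 111, 96 and 98, a log2 fold change of -1.14. *Nop56* and *hoip* followed with -0.87 and -0.92. In all of them control replicates 3 and 4 were the highest libraries, and the knockdown libraries lay below the other controls as well. Leaving out any one library left 5 or 6 of these genes lower, and leaving the 3 libraries that stand apart aside left 5.

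Other genes of ribosome assembly went the same way with smaller sizes. A second list, of ribosome assembly and RNA polymerase I, was also written after the values had been seen. Of its 20 genes tested 7 were lower and 0 higher (35.0%), with a median log2 fold change of -0.35. *Nopp140*, a nucleolar scaffold, fell by 0.52 on the log2 scale, *Nnp-1* by 0.46 and *RpI1*, the largest subunit of RNA polymerase I, by 0.37. Their number depended on single controls. It was 3 without control replicate 3 or control replicate 4, 12 without control replicate 5, and 4 without *GMR > prp4* RNAi replicate 8 or replicate 10. With control replicate 1 and *GMR > prp4* RNAi replicates 9 and 10 left aside, 3 were lower and 1 higher.

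The ribosomal proteins themselves did not share this change. Of 84 tested genes of the cytoplasmic ribosome, 0 were called in either direction by edgeR (4 at an unadjusted p under 0.05), 0 by limma-voom and 2 by DESeq2, and the median log2 fold change was -0.029. *RpS29*, the member with the most reads, had 54772, 48852, 50590, 46613 and 52129 reads in the controls and 53608, 52183, 52511, 48360 and 50209 in the knockdown. In the mitochondrial ribosome, by comparison, 6 of 70 genes were lower and 0 higher, 66 had a log2 fold change below 0, and the median was -0.15. *mRpS35* had 637, 635, 636, 669 and 607 reads in the controls compared with 455, 470, 446, 486 and 521 in the knockdown libraries, a log2 fold change of -0.40. *mRpL52*, *mRpL28* and *mRpS2* had log2 fold changes of -0.33, -0.27 and -0.26. The share called, 8.57%, is near the background of 9.63%, so the list stands out by its median rather than by its calls. The number of lower genes was 3 without control replicate 3 and 10 without control replicate 5.

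Aminoacyl-tRNA synthetases, which charge tRNAs for translation, had 3 of 32 genes lower and 0 higher with a median log2 fold change of -0.14. The share called, 9.38%, is near the background of 9.63%. CG17259, a seryl-tRNA synthetase, had 391, 414, 469, 411 and 357 reads in the controls and 323, 317, 302, 278 and 336 in the knockdown, a log2 fold change of -0.38. *Aats-thr* and *Aats-ala* had log2 fold changes of -0.26 and -0.27. The list had 7 lower genes without control replicate 5 and 1 without any one of 5 other libraries. In the list of oxidative phosphorylation 4 of 68 genes were lower (5.88%, below the background), 60 had a log2 fold change below 0, and the median was -0.098. *Cyt-c-p*, the somatic cytochrome c, fell by 0.24 on the log2 scale. The number was 1 without any one of control replicates 1, 3 and 4 or of *GMR > prp4* RNAi replicates 7 and 8, 2 without control replicate 2 or *GMR > prp4* RNAi replicate 9, and 16 with control replicate 1 and *GMR > prp4* RNAi replicates 9 and 10 left aside. In 31 proteasome genes edgeR, limma-voom and DESeq2 called 0, 0 had an unadjusted p under 0.05, and the largest log2 fold change in size was -0.10.

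**Figure D3:**
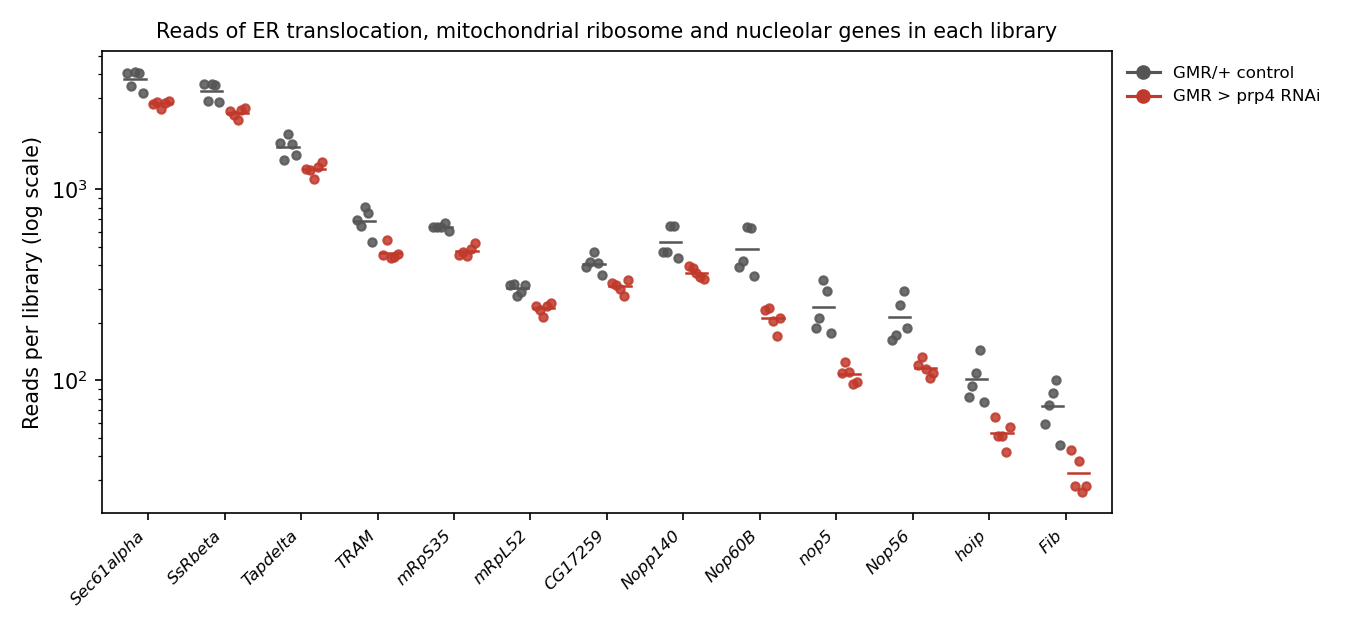
Reads per library (y axis, log scale) of 13 genes of ER translocation, the mitochondrial ribosome, tRNA charging and the nucleolus in the 5 control (grey) and 5 *GMR > prp4* RNAi (red) libraries, with group means as short lines. Control replicates 3 and 4 are the highest points of *Nop60B*, *nop5*, *Nop56*, *hoip* and *Fib*, and knockdown means lie below control means for each gene.

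Enzymes that handle foreign and internal small molecules were called more often than genes at large. UDP-glycosyltransferases attach sugars to lipophilic compounds for excretion. Of 18 tested, 7 were higher and 0 lower (38.9%, against 9.63% of all genes), with 12 genes above 0 and 6 below and a median log2 fold change of 0.15. CG4302 had 326, 323, 292, 278 and 251 reads in the controls compared with 543, 561, 537, 681 and 654 in the knockdown libraries, a log2 fold change of 1.03 (standard error 0.096, edgeR adjusted p = 1.38e-05). CG15661, which overlaps CG4302 on 2R, had 273, 239, 269, 233 and 230 reads against 361, 416, 388, 460 and 459, a log2 fold change of 0.76. *Ugt86Dd* and *Ugt37b1* rose by 0.49 and 0.79 on the log2 scale. In CG4302 and CG15661 knockdown replicates 9 and 10 were the highest. Without control replicate 2 or *GMR > prp4* RNAi replicate 7 the number was 4, and with control replicate 1 and *GMR > prp4* RNAi replicates 9 and 10 left aside 4 were higher and 1 lower.

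Cytochromes P450, oxidases with roles in detoxification and hormone synthesis, had 13 of 62 genes higher and 5 lower (29.0%), with 47 genes above 0 and a median log2 fold change of 0.16. *Cyp6g1*, which metabolizes insecticides, had 2615, 2033, 1994, 1953 and 1946 reads in the controls and 3197, 3626, 4018, 4120 and 3346 in the knockdown, a log2 fold change of 0.81. *Cyp12d1-p* had 27, 28, 18, 22 and 24 reads against 113, 93, 119, 72 and 84, a log2 fold change of 2.02. A near-identical copy of this gene lies beside it, and reads could be split between the copies. *Cyp4aa1* was lower, with 277, 266, 223, 254 and 239 reads in the controls and 118, 156, 99, 151 and 128 in the knockdown (log2 fold change -0.93). The number of calls depended on single libraries. The number of higher genes was 5 without control replicate 3 or *GMR > prp4* RNAi replicate 8, 6 without control replicate 2 or 4, 7 without control replicate 5 or *GMR > prp4* RNAi replicate 10, and 8 without *GMR > prp4* RNAi replicate 9. With the 3 libraries that stand apart left aside, 9 were higher and 4 lower. The lower genes numbered 3 without any one of control replicates 1 to 4 or of *GMR > prp4* RNAi replicates 7 to 9.

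*Cyp4g1*, which makes cuticular hydrocarbons in oenocytes, had the highest log2 fold change of the P450 list, 2.46, on uneven counts. It had 52, 3, 20, 55 and 43 reads in the controls compared with 279, 76, 266, 4 and 321 in the knockdown libraries, so that replicate 9 lay within the control range. The call was lost without any one of 8 libraries, and with limma-voom and DESeq2. Of 29 glutathione S-transferases, 2 were higher and 3 lower (17.2%). *GstE14*, which acts in the making of ecdysteroids, had 658, 592, 558, 631 and 615 reads against 321, 256, 284, 363 and 327, a log2 fold change of -0.96. *GstE7* rose by 0.63 and *GstD3* fell by 0.32 on the log2 scale.

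In the list of digestive proteases and glucosidases, 18 of 24 genes had too few reads to be tested. Of the 6 tested, 4 were higher, 1 was lower and 1 was not called (83.3% called). *Amy-d* and *Amy-p*, the near-identical amylase genes between which reads could be split, ranged from 3290 to 4985 and from 533 to 961 reads in the controls and from 5784 to 9270 and from 1129 to 2129 in *GMR > prp4* RNAi. Their log2 fold changes were 0.85 and 1.04, and neither gene overlapped between the groups. *Mal-B2*, a maltase, had 1147, 906, 925, 910 and 913 reads against 1393, 1501, 1476, 1556 and 1542, a log2 fold change of 0.65. *Mal-B1*, its neighbour on 2L, went the other way with 32, 33, 36, 30 and 42 reads against 6, 13, 7, 8 and 6, a log2 fold change of -2.08.

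In fatty acid synthesis and storage the share called, 11.8%, was near the background. *bmm*, the triglyceride lipase Brummer, and *ATPCL*, which makes acetyl-CoA for fatty acid synthesis, were higher among 17 genes tested. The number of higher genes was 1 without any one of control replicates 2 to 5 or of *GMR > prp4* RNAi replicates 9 and 10, 5 without *GMR > prp4* RNAi replicate 6 and 4 with DESeq2. *bmm* had 1367, 1331, 1515, 1517 and 1208 reads in the controls and 1638, 1683, 1970, 2099 and 2187 in the knockdown, a log2 fold change of 0.48. *Lsp1alpha*, a larval storage protein, had 270, 148, 234, 216 and 137 reads against 301, 435, 322, 454 and 810, a log2 fold change of 1.23. Fat body markers as a list had 0 of 7 genes higher and 1 lower (14.3%), *Apoltp*. With the 3 libraries that stand apart left aside, 2 of these markers were higher and 0 lower. Their summed reads were 109825, 71575, 95367, 99997 and 71909 in the controls compared with 57516, 76080, 80909, 211299 and 237950 in the knockdown libraries, so that replicates 9 and 10 had more than any control and replicate 6 fewer. The part of these cells in the results for metabolic genes was not tested.

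**Figure D4:**
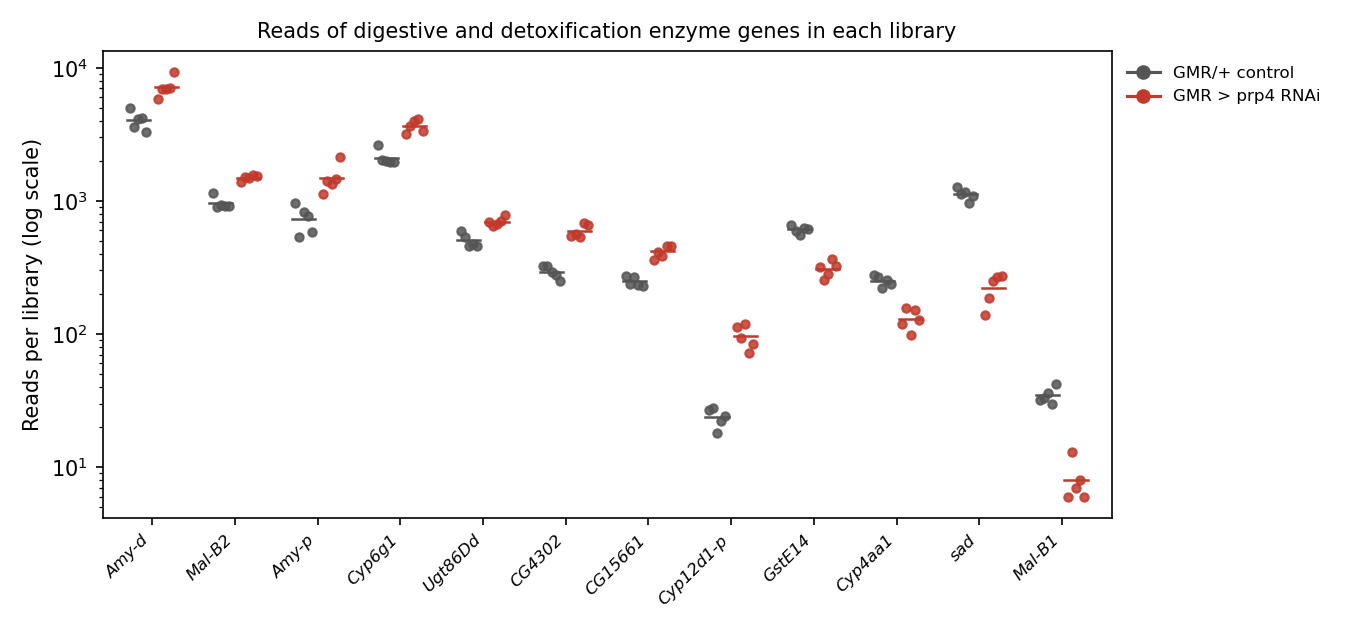
Reads per library (y axis, log scale) of 12 genes of digestion, detoxification and hormone synthesis in the 5 control (grey) and 5 *GMR > prp4* RNAi (red) libraries, with group means as short lines. Amylases, *Mal-B2*, *Cyp6g1* and UDP-glycosyltransferases are higher in the knockdown, and *GstE14*, *Cyp4aa1*, *sad* and *Mal-B1* are lower, with log2 fold changes of -0.96, -0.93, -2.31 and -2.08.

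Genes of the cuticle changed strongly but not in one direction. Of 26 cuticle protein genes tested, 3 were higher and 5 lower (30.8%), with a median log2 fold change of -0.0020. With the 3 libraries that stand apart left aside, 4 were higher and 9 lower. *Acp65Aa*, an adult cuticle protein, had 50, 39, 31, 23 and 35 reads in the controls compared with 111, 74, 110, 125 and 113 in the knockdown libraries, a log2 fold change of 1.60. *Cpr47Ea* rose by 0.92 on the log2 scale. *Acp1* and *Ccp84Ag* fell, with log2 fold changes of -2.09 and -1.58. *Acp1* had 69, 78, 67, 68 and 59 reads in the controls and 16, 26, 4, 13 and 20 in the knockdown. *TwdlE*, of the Tweedle family of cuticle proteins, had 13, 18, 10, 14 and 12 reads against 114, 141, 132, 98 and 176, a log2 fold change of 3.31.

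Osiris genes, a clustered family of insect membrane proteins expressed where cuticle is secreted, were lower in 3 of 5 tested (60.0%). *Osi7* had 357, 360, 290, 406 and 344 reads in the controls compared with 99, 96, 98, 77 and 61 in the knockdown libraries, a log2 fold change of -2.01 (edgeR adjusted p = 1.52e-07). *Osi2* had 1221, 1304, 1153, 1185 and 1247 reads against 570, 596, 652, 756 and 759, a log2 fold change of -0.86. *Osi6* fell by 0.36 on the log2 scale, with overlap between the groups. In the Tetraspanin 42E cluster, neighbouring genes moved in opposite directions. *Tsp42En* and *Tsp42Eo*, which overlap each other, had log2 fold changes of -0.68 and -0.71, and *Tsp42Ek* one of 0.57.

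Genes that make and read the moulting hormone ecdysone include the P450 with the lowest log2 fold change. *sad*, the Halloween gene that encodes a hydroxylase of ecdysteroid synthesis, had 1270, 1135, 1168, 959 and 1091 reads in the controls compared with 139, 186, 252, 267 and 273 in the knockdown libraries, a log2 fold change of -2.31 (standard error 0.156, edgeR adjusted p = 5.37e-07). *Eip74EF*, an ecdysone-induced transcription factor, had 433, 467, 411, 463 and 518 reads against 700, 639, 722, 632 and 619, a log2 fold change of 0.55. Over 17 tested genes 1 was higher and 3 lower (23.5%). The lower genes were *sad*, *GstE14* and *ImpL1* (log2 fold change -0.51, edgeR adjusted p = 0.0463). In insulin signalling, 2 of 15 genes were lower and 0 higher (13.3%), and with the 3 libraries that stand apart left aside 3 were lower and 3 higher. The 2 lower genes were *Ilp5*, an insulin-like peptide, with 412, 398, 354, 407 and 387 reads against 234, 244, 268, 317 and 319, and *ImpL2*, a secreted insulin antagonist, with 1605 to 1862 reads against 1326 to 1422. *Ilp5* lies within CG43897, a gene on the other strand described with the splice junctions.

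Lists of immunity genes differed in how many members were called. Antimicrobial peptides had 0 of 10 genes called by edgeR (0 at an unadjusted p under 0.05), limma-voom or DESeq2, and their summed reads were 27940, 1673, 1864, 982 and 1305 in the controls against 14744, 3532, 1786, 12425 and 1541 in the knockdown. Control replicate 1 and *GMR > prp4* RNAi replicates 6 and 9 were high, and with control replicate 1 and replicates 9 and 10 of the knockdown left aside 6 were called higher. Without control replicate 1 alone, 2 were. Bomanins and related immune-induced peptides had 12 of 12 log2 fold changes above 0, a median of 0.27 and 2 genes called higher (16.7%). The number was 4 without control replicate 1, 1 without any one of control replicates 3 to 5 or of *GMR > prp4* RNAi replicates 8 and 10, and 4 with the 3 libraries that stand apart left aside. CG5791 had 168, 123, 138, 111 and 127 reads in the controls and 253, 190, 195, 180 and 193 in the knockdown, a log2 fold change of 0.61.

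In the list of thioester proteins, which mark microbes for uptake, and JAK-STAT genes, 3 of 9 were higher and 1 lower (44.4%, against 9.63% of all genes), and 8 had an unadjusted p under 0.05. *Tep4* had 2837, 2371, 2418, 2241 and 2873 reads in the controls compared with 3326, 3344, 3147, 3483 and 3212 in the knockdown libraries, a log2 fold change of 0.39, and *Tep2* and *Tep3* rose by 0.30 and 0.18. *Tep3* lost the call without any one of 9 libraries. In the same list, *os* (also known as unpaired), a ligand of the JAK-STAT pathway, was lower, with 13, 15, 11, 20 and 17 reads against 2, 3, 4, 2 and 6, a log2 fold change of -2.10. *Hml*, the hemocyte gene hemolectin, had 2047, 1938, 1998, 1933 and 2275 reads in the controls and 1323, 1195, 1422, 1485 and 1161 in the knockdown, a log2 fold change of -0.61. Of the 8 hemocyte markers 1 was higher and 2 were lower (37.5%). Their summed reads ranged from 9415 to 10289 in the controls and from 8864 to 11177 in the knockdown. Among serpins, 2 of 16 were higher and 2 lower (25.0%), with *Spn55B* at a log2 fold change of -0.57.

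Heat-shock genes split the knockdown libraries. *Hsp70Bb*, one of several near-identical copies whose reads could be split, had 3, 1, 2, 2 and 5 reads in the controls compared with 53, 29, 34, 24 and 22 in the knockdown libraries, a log2 fold change of 3.59. The inducible genes together had 26026, 29272, 31906, 32218 and 27532 reads in the controls. In *GMR > prp4* RNAi they had 54221, 40020 and 52233 in replicates 6 to 8 and 21730 and 22300 in replicates 9 and 10, below every control. *Hsp68* showed the same split, with 225 to 242 reads in the controls and 1002, 458, 848, 189 and 225 in the knockdown, and was not called (edgeR adjusted p = 0.0518). Of 10 genes tested 2 were higher (20.0%). The number was 7 when genes with low counts were kept. It was also 7 with control replicate 1 and *GMR > prp4* RNAi replicates 9 and 10 left aside. Stress signalling through JNK and cell death genes had 2 of 25 higher (8.0%, below the background), *Xrp1* and *Dark*. *Xrp1*, a stress-induced transcription factor, had 6336, 6764, 6626, 6363 and 6481 reads against 7936, 7765, 8075, 7327 and 7372, a log2 fold change of 0.26. Oxidative stress defence had 0 of 14 genes called by edgeR, limma-voom or DESeq2, and 2 at an unadjusted p under 0.05.

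Among neuronal genes the dopamine receptor *Dop1R1* stood apart from its group. It had 4015, 4402, 4346, 4022 and 4063 reads in the controls compared with 1495, 1379, 1362, 1454 and 1256 in the knockdown libraries, a log2 fold change of -1.57 (standard error 0.052, edgeR adjusted p = 2.07e-10). It was the only one of 8 dopamine genes called (12.5%). Ion channels had 4 of 28 genes higher and 1 lower (17.9%). Of these channels 2 were higher without *GMR > prp4* RNAi replicate 8, and 0 to 2 were lower without any one library. *eag*, a potassium channel, had 642, 863, 822, 944 and 1040 reads in the controls and 1399, 1350, 1257, 1205 and 1253 in the knockdown, a log2 fold change of 0.60, and *KCNQ*, another, rose by 0.46. *Arc1*, an activity-regulated gene whose protein forms capsids, had 2388, 2369, 2362, 2404 and 2443 reads against 4173, 4229, 5260, 3082 and 3051, a log2 fold change of 0.74. Controls of *Arc1* were tight and knockdown libraries were not, with replicates 9 and 10 the lowest.

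Of 18 clock genes, 2 were higher (11.1%, near the background). With the 3 libraries that stand apart left aside 0 were higher and 1 was lower, so that both calls were lost. *tim*, a repressor of the molecular clock, had 12957, 14150, 13399, 13589 and 14531 reads in the controls compared with 14955, 15900, 16482, 16546 and 15372 in the knockdown libraries, a log2 fold change of 0.22. *Clk*, the transcriptional activator, had a log2 fold change of 0.39 with overlap between the groups and lost the call without any one of 6 libraries. Neuropeptides had 1 of 24 genes higher and 1 lower (8.33%, below the background). *CCHa2*, a peptide of the gut and fat body, rose by 0.61 on the log2 scale, and *Nplp3* fell by 0.42. Of 14 acetylcholine genes 0 were called by edgeR (4 at an unadjusted p under 0.05), 0 by limma-voom and 1 by DESeq2. Of 15 general neuron markers 0 were called by any of these tools, and 2 had an unadjusted p under 0.05. Summed neuron marker reads ranged from 65108 to 83396 in the controls and from 72817 to 79169 in the knockdown. Glia markers had 2 of 11 lower (18.2%), among them *moody*, a receptor of the blood-brain barrier, at a log2 fold change of -0.34. Their summed reads did not overlap, with 57584 to 63322 in the controls and 51805 to 55838 in the knockdown, and the part of glia in these results was not tested. Photoreceptor markers as a list had 1 of 12 higher and 3 lower (33.3%). They summed to between 1512969 and 1596430 reads in the controls and between 1441562 and 1604676 in the knockdown.

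Sensory genes outside the eye were called in small numbers. *Or63a*, which encodes an odorant receptor, had 172, 177, 165, 140 and 166 reads in the controls compared with 83, 83, 77, 70 and 83 in the knockdown libraries, a log2 fold change of -1.03. Only 4 of 48 odorant receptor genes had enough reads to be tested, and 2 of these were lower (50.0%, against 9.63% of all genes). Of 6 ionotropic receptors tested 1 was higher (16.7%), *Ir62a*. All 6 had a log2 fold change above 0, with a median of 0.33. Among 21 odorant-binding proteins 2 were higher (9.52%), *Obp19a* and *Obp56h*, with log2 fold changes of 1.17 and 1.26. With the 3 libraries that stand apart left aside, 5 were higher and 2 lower.

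Other small counts also rested on single libraries. With the 3 libraries that stand apart left aside, 0 genes of the phototransduction cascade were higher and 3 lower, 2 of rhodopsin shut-off were higher and 1 lower, and 2 of pigment transport and ommochromes were higher and 1 lower. In the same setting 2 histamine genes were higher and 0 lower, 0 genes of ER folding were higher and 2 lower, and 0 aminoacyl-tRNA synthetases were higher and 1 lower. Further, 1 gene of the JNK list was higher and 0 lower, 1 serpin was higher and 2 lower, 3 glutathione S-transferases were higher and 2 lower, and 2 Tetraspanin 42E genes were higher and 3 lower. For odorant receptors the counts were 0 and 1, for hemocyte markers 1 and 1, for neuropeptides 2 and 1, and for Sm core, U1 and U2 factors 1 and 0. Without any one library, the number of higher genes ranged from 0 to 2 in the cascade, 1 to 3 in the JNK list, 1 to 4 in glutathione S-transferases and 1 to 3 in heat-shock proteins, and the number of lower genes from 1 to 4 in glia markers and 1 to 2 in hemocyte markers and odorant receptors.

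The largest increases included genes that overlap each other. CG10407 and CG10264, members of the takeout family of secreted ligand carriers, overlap on 3R (16044445 to 16046432 and 16043196 to 16045134). CG10407 had 12, 3, 4, 3 and 5 reads in the controls compared with 2205, 2087, 2039, 2045 and 1991 in the knockdown libraries, a log2 fold change of 8.57. CG10264 had 0 reads in every control and 120, 132, 108, 152 and 130 in the knockdown, at least 42.8-fold higher when each control is set to a floor of 3 counts. *ird5*, an IkappaB kinase of the Imd immune pathway that overlaps CG10407, had 279, 303, 294, 298 and 309 reads against 511, 493, 498, 528 and 425, a log2 fold change of 0.74. These were the only genes of their lists with such a change. Among 16 takeout genes 2 were higher and 2 lower (25.0%), with a median log2 fold change of 0.088. Among 19 genes of peptidoglycan recognition and Imd 1 was called (5.26%).

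The *w* gene on X (2790297 to 2796768) had 500, 509, 474, 462 and 454 reads in the controls compared with 5949, 6464, 5607, 5524 and 5805 in the knockdown libraries, a log2 fold change of 3.63 (standard error 0.058). GD lines carry a copy of *w* as their marker, so these reads do not measure the endogenous gene alone. CG13891, on 3L from 432844 to 434208 at the end of *klar*, had 0 reads in every control and 73, 63, 63, 59 and 63 in the knockdown, at least 21.4-fold higher against the same floor. CG17005 on 2L had 40, 46, 53, 64 and 42 reads against 424, 462, 506, 441 and 438, a log2 fold change of 3.23. *Hey*, a target of Notch signalling, had 26, 18, 19, 10 and 18 reads against 123, 122, 133, 87 and 95, a log2 fold change of 2.63, and *Cad89D*, a cadherin, had a log2 fold change of 2.64. *Pex7*, a peroxisomal import receptor, rose by 1.71, CG32855 by 1.66, CG9616 by 1.43, CG18031 by 1.39 and *Sirup*, an assembly factor of succinate dehydrogenase, by 1.38.

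**Figure D5:**
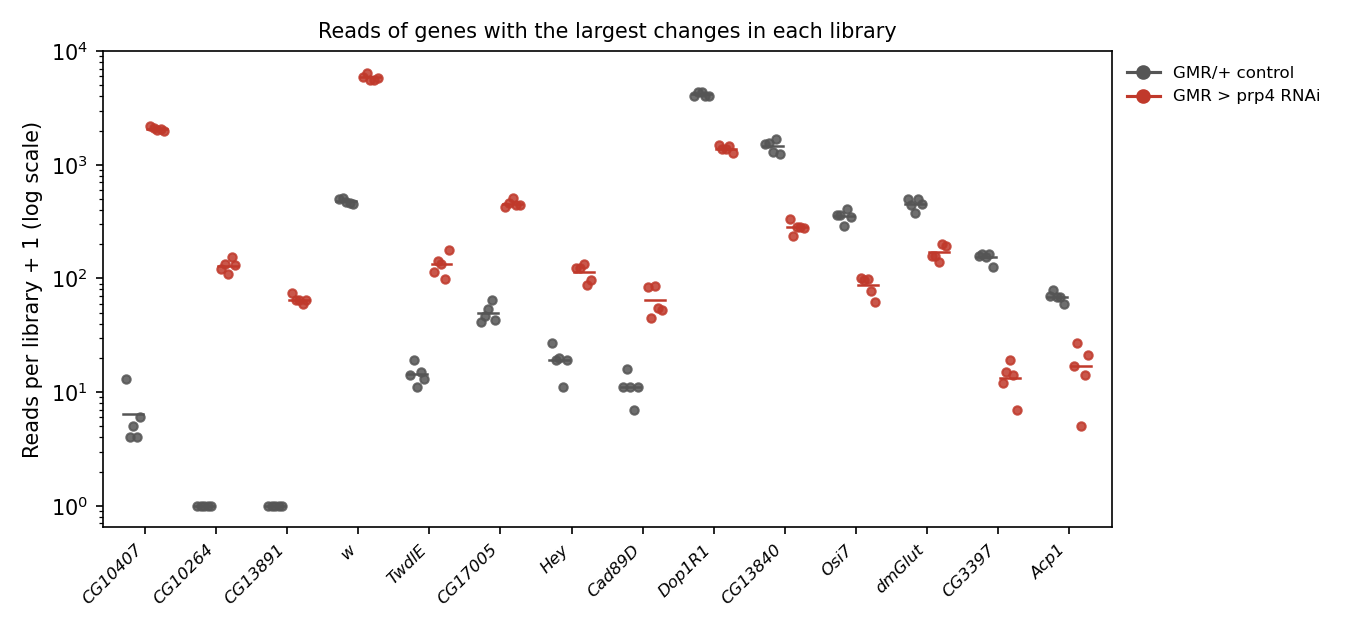
Reads per library plus 1 (y axis, log scale) of 14 genes with large changes in the 5 control (grey) and 5 *GMR > prp4* RNAi (red) libraries, with group means as short lines. CG10264 and CG13891 sit at 0 reads in all controls, CG10407 goes from 3 to 12 reads to 1991 to 2205, and CG3397 falls from between 124 and 164 reads to between 6 and 18.

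Several of the largest decreases, such as those of *sad*, *Osi7* and *Nop60B*, are described above. CG3397, which encodes a protein of the aldo-keto reductase family, had 157, 162, 153, 164 and 124 reads in the controls compared with 11, 14, 18, 13 and 6 in the knockdown libraries, a log2 fold change of -3.59. CG13840 had 1508, 1561, 1294, 1684 and 1242 reads against 332, 236, 284, 285 and 276, a log2 fold change of -2.35. *dmGlut*, a transporter of the solute carrier family, had 500, 441, 372, 494 and 449 reads against 157, 158, 139, 200 and 191, a log2 fold change of -1.40. *mre11*, a nuclease of DNA double-strand break repair, fell by 1.42, CG5883 by 1.40 and CG11898 by 1.28 on the log2 scale. All 30 genes at the ends of the ranking are free of overlap by their selection.

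Splicing factors were nearly all without a call. Of 20 tested genes of the tri-snRNP, 2 were higher and 1 lower (15.0%), and the median log2 fold change was -0.0056. The lower gene was *hoip*, which binds U4 RNA and is shared with the small nucleolar particles, with 82, 94, 109, 144 and 77 reads in the controls and 64, 51, 51, 42 and 57 in the knockdown. *Prp3* and CG6686 had log2 fold changes of 0.21 and 0.25, and the calls were lost without any one of 7 and of 3 libraries. In the list of Sm core, U1 and U2 factors 0 of 21 were called by edgeR (3 at an unadjusted p under 0.05), limma-voom or DESeq2. In RNA interference and antiviral defence, *Dcr-2*, the Dicer of the small interfering RNA pathway, rose by 0.24, and CG1667, the fly ortholog of STING, had 283, 266, 168, 255 and 295 reads against 161, 141, 144, 121 and 151, a log2 fold change of -0.80.

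Use of splice junctions within genes was compared by testing whether a junction changed relative to the other junctions of its gene (diffSpliceDGE of edgeR, junctions with at least 10 reads in at least 5 libraries). Of 4445 genes tested, 25 (0.562%) were called, and 5 of these were also called for their gene count. Those 25 genes did not belong to a single function. Several are genes of muscle and cell shape. *Zasp52*, a Z-disc protein, had 129, 97, 114, 112 and 119 reads on the junction on 2R from 15763271 to 15763349 in the controls compared with 38, 20, 37, 46 and 32 in the knockdown libraries. *Strn-Mlck*, a myosin light chain kinase, fell on a junction on 2R from 15947607 to 15948004, from 47 to 70 reads to 27 to 37. *dp*, a giant protein of the apical extracellular matrix, and *Moe*, which links actin to the membrane, were called too. Also called were AdenoK, Msr-110, mthl10, rgr, CG9776, CG12071, CG13830 and CG33203. *trol*, the basement membrane proteoglycan perlecan, had 4, 9, 10, 13 and 5 reads on a junction on X from 2493216 to 2494403 against 29, 25, 23, 29 and 18.

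Others act in signalling and in the eye. *Pka-R1*, a regulatory subunit of protein kinase A, had 0, 0, 0, 0 and 3 reads on a junction on 3L from 20831198 to 20832845 in the controls and 28, 23, 40, 22 and 17 in the knockdown. *Ggamma30A*, the G protein gamma subunit of phototransduction, had 8, 8, 3, 8 and 9 reads on a long junction on 2L from 9257207 to 9291055 against 31, 23, 33, 22 and 22. *rdgA*, the diacylglycerol kinase of photoreceptors, had 110, 133, 116, 118 and 146 reads on a junction on X from 9024419 to 9024623 against 204, 192, 181, 200 and 181. *bw*, a partner of White in the transport of red pigment precursors, fell on a junction on 2R from 23529272 to 23529338, with 141, 128, 163, 138 and 123 reads against 82, 89, 80, 85 and 95. In none of these 4 did the gene count itself pass the threshold, and no library of one group overlapped the other on the junction.

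*Ace*, acetylcholinesterase, rose on a junction on 3R from 13246655 to 13258302, with 30, 33, 27, 26 and 39 reads in the controls and 72, 55, 73, 59 and 48 in the knockdown. *shi*, the dynamin of synaptic vesicle retrieval, had 62, 86, 56, 71 and 67 reads on a junction on X from 15900261 to 15901543 against 124, 130, 98, 135 and 125. Genes of lipid metabolism were represented by *Pis*, *Pect* and *Npc1a*. *Pis*, phosphatidylinositol synthase, had 17, 14, 14, 12 and 19 reads on a junction on X from 15701587 to 15701950 against 4, 3, 3, 5 and 4. *Npc1a*, a sterol transporter, exchanged reads between junctions that share one end, on 2L from 10217181 to 10217352 and to 10217340. The former rose from 48 to 83 reads to 99 to 120 and the latter fell from 244 to 313 reads to 158 to 220.

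The smallest p-value for junctions belonged to CG43897, a gene that overlaps *Ilp5* and I-2. Its junction on 3L from 9831441 to 9832195 had 5, 5, 8, 4 and 3 reads in the controls compared with 177, 192, 186, 65 and 135 in the knockdown libraries, and the one from 9830786 to 9831434 had 2, 0, 3, 0 and 0 against 105, 117, 118, 36 and 88. Both lie within the junction from 9830786 to 9832198, which fell from 199 to 281 reads to 79 to 158. In *RpS4*, the only ribosomal protein gene called, a junction from 13042015 to 13042109 on 3L rose from 152 to 219 reads to 234 to 433. *Dop1R1* was called for one long junction on 3R from 14070358 to 14175693 that kept 21, 12, 6, 14 and 14 reads, against 9, 15, 3, 17 and 15 in the controls, while the gene lost most of its reads.

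Exon use was called in 72 of 7484 genes (0.962%). The smallest p-values belonged to *klar* and CG32795, where the exon that rose coincides with CG13891 or overlaps *w* on the same strand, so these calls cannot be told apart from the changes of those genes. *Desat1*, a fatty acid desaturase, fell on an exon on 3R from 12444959 to 12445107, with 250, 194, 212, 260 and 269 reads in the controls and 122, 100, 124, 159 and 141 in the knockdown, while its gene count was not called. CG5196, GstD9 and CG30091 were also among the 10 smallest p-values. CG4577 had 17, 27, 26, 16 and 13 reads on a short exon on 2L from 1138621 to 1138641 against 1, 0, 1, 1 and 1. *mle*, the RNA helicase of dosage compensation, fell as a gene, with 1357, 1505, 1458, 1432 and 1546 reads against 784, 789, 825, 778 and 878 (log2 fold change -0.83). Its exon on 2R from 5979701 to 5980403 kept its reads, with 89, 98, 92, 70 and 109 in the controls and 93, 82, 86, 91 and 105 in the knockdown. Of 3 RNAs tested of the male dosage compensation system that *mle* serves, 0 were called. Those of *msl-2* and *roX1* had log2 fold changes of 0.086 and 0.026, and the highest of the 3 was 0.13.

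Both tri-snRNP knockdowns were also compared directly, in a fit of all 15 libraries to which the controls contribute only their spread. One of the libraries labelled *GMR > prp8* RNAi, replicate 14, was unlike the other 4 for many of the genes above. CG10407 had 14, 10, 9 and 10 reads in replicates 11, 12, 13 and 15 and 2064 in replicate 14, where *GMR > prp4* RNAi had 1991 to 2205. *sad* had 1030 to 1351 reads in the 4 libraries and 129 in replicate 14, and *Rh2* 2634 to 3179 and 1161. The library stays in its labelled group, and values are given with and without it. With it, 215 of 9115 genes (2.36%) were called between the knockdowns, and without it 579 of 9159 (6.32%).

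Differences between the knockdowns were detected for some of the genes described above. *Rh2* was lower in *GMR > prp4* RNAi than in *GMR > prp8* RNAi, with a log2 difference of -1.15 with the library labelled replicate 14 and -1.34 without it, and *Rh3* was lower by 0.47 and 0.56. *Rh4* and *Rh5* had log2 differences of 0.011 and 0.071 without that library and were not called. CG4302, of the UDP-glycosyltransferases, was higher by 0.95 and 1.06, and of the 18 and 19 genes of that family tested 3 and 4 were higher and 0 lower. *Osi7* and *Mal-B1* were lower with and without the library. *Arc1* was lower in *GMR > prp4* RNAi by 1.17 and 1.37, with 8585 to 11592 reads in the 4 *GMR > prp8* RNAi libraries. *Sec61alpha*, *Nop60B*, *Dop1R1* and *Hsp70Bb* had log2 differences of -0.096, -0.32, 0.074 and 0.31 without the library, with adjusted p from 0.327 to 0.540 in edgeR, so no difference was detected in them, which does not show that the knockdowns act alike.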

How the data were processed

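RNA-Seq libraries from heads were prepared with the SENSE mRNA kit, and the authors aligned reads with STAR 2.5.3a to BDGP6, normalized by resampling reads with PORT after removing ribosomal and mitochondrial reads, and deposited counts per gene, exon and junction. These counts were used as deposited. The strand setting of the counting is not given in the sources used here, so reads of overlapping genes cannot be told apart. Resampled libraries have near-equal totals, and p-values measure the spread between these libraries. The study describes them as independent biological replicates.

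Gene counts were tested with edgeR 4.0.16 (R 4.3.3; TMM, filterByExpr, quasi-likelihood test, Benjamini-Hochberg adjustment, threshold 0.05), and junction and exon use with diffSpliceDGE (minimum of 10 counts in 5 or more libraries, Simes). The study used limma-voom, which was run as an alternative (limma 3.58.1), with DESeq2 1.42.0, other filters and scaling, and each replicate left out. Tests were checked on simulated data.

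Genes were named from among CG7028 and *w*, the 15 highest and 15 lowest log2 fold changes among called genes with a mean of at least 50 counts in one group and no overlap, up to 4 called members per list (up to 2 of the highest count where none was called), all genes called for junction use and the 10 with the smallest p for exon use. *ninaE*, *Rh6*, *Rh7*, *NHP2*, CG4038, *Hsp68*, *Cyp4g1* and *Nop56* were named after their values were seen, as were genes mentioned without values. The members and the 71 lists were chosen with earlier results of these data known, and 2 lists after the values were seen. A result that falls under the naming rule is not reported here. No sequence is printed.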

Additional observations from a re-analysis of the deposited data

Results flagged for a closer look

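In 16 of 316 sets of 5 libraries (each gene named above, in each group), the highest or lowest library stood apart from the other 4, with a gap above 0.71 of the range of the group. Chance alone gives about 1 in 20. Among controls, replicate 1 was apart in CG10407 (12 reads, the others 3 to 5), *Hn* (8416), *Cyp6g1* (2615) and *Mal-B2* (1147), where it was the highest. Control replicate 2 was highest in *g* (410), replicate 3 lowest in CG1667 (168) and *ImpL1* (29), and replicate 5 lowest in CG3397 (124) and highest in *Dark* (511). Among *GMR > prp4* RNAi libraries, replicate 6 was highest in CG10407 (2205), *Sirup* (499), *e* (559) and CG5791 (253). Replicate 8 was lowest in *Pex7* (55), replicate 9 highest in *Pka-R1* (2274) and replicate 10 highest in CG9616 (81).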

How the results depend on the processing

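No paired analysis was possible because the replicate numbers of the groups (1 to 5, 6 to 10 and 11 to 15) are not shared. Requiring an absolute log2 fold change of 1 left 80 of the called genes, 45 higher and 35 lower. With limma-voom, DESeq2, library size scaling, either other filter on low counts or all 15 libraries in one fit, the number called stayed within 1.5 times 868. It was 894 (464 higher and 430 lower) with control replicate 1 and *GMR > prp4* RNAi replicates 9 and 10 left aside, a choice made after the data were seen. Leaving out 1 library gave 563 (without control replicate 3) to 916 (without control replicate 5) called genes, 284 to 415 higher and 271 to 501 lower. The log2 fold change of CG7028 ranged from -0.28 (without *GMR > prp4* RNAi replicate 6, where it passed the threshold) to -0.19. Genes called for junction use numbered 48 with the gene-level F test, 13 at a minimum of 50 counts and 36 with limma, and genes called for exon use 173, 58 and 117. The range without 1 library was 18 to 23 for junctions and 41 to 85 for exons. Between the knockdowns, 215 genes were called, and 579 without the library labelled *GMR > prp8* RNAi replicate 14. Of the genes named, *ninaE*, *Ace* and *roX1*, none of them called, changed sign. *ninaE* ranged from -0.037 to 0.010 when 1 library was left out and was 0.012 with the 3 libraries left aside. The log2 fold change of Ace ranged from -0.034 to 0.032, and was -0.016 with library size scaling, -0.0025 with no filter and -0.00987 with the 3 libraries left aside, where the log2 fold change of roX1 was -0.00927. Over the genes named and all alternatives, 2482 values kept their direction and side of the threshold, 170 no longer passed and 10 newly passed. Counts of called members were less stable: over the 71 gene lists and all alternatives, 447 counts moved by over 1.5 times and 2073 did not, and 28 list medians moved and 1161 did not. The causes of these changes were not tested. Genes with few reads limit what could be detected, and 4247 genes were not tested.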
